A study of Mus musculus with 6 samples.

Results

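The 47 genes described here encode the main parts of the transforming growth factor beta (TGF-beta) and bone morphogenetic protein (BMP) pathway: ligands, the proteins that store or block them, receptors, Smad transducers and Id target genes. They were chosen by symbol, and all 47 were found among the 21718 genes of the count table. RNA was measured in 6 samples of whole prostate tumours from castrated mice of 1 genetically engineered prostate cancer model, the same in both groups. All the mice were irradiated (900 rad) at 6 weeks of age, received donor marrow 2 hours later, were castrated when 8 weeks old, and the tumours were taken 16 weeks later. The donors were F10fl/fl mice without Cre (the control-marrow group, samples 1, 3 and 4) or F10fl/fl; LysM-Cre+ mice (the LysM-Cre group, samples 1, 3 and 4), so both groups carry floxed alleles of F10, the gene of coagulation factor X, and only the second carries a Cre that acts in myeloid cells. The tumour epithelium and stroma belong to the host in both groups, and any host myeloid cells that survived irradiation keep F10. The comparison asks how the tumours differ when F10 is targeted in marrow-derived myeloid cells. No group had Cre without floxed F10, so an effect of Cre itself cannot be told apart from the targeting of F10.

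TGF-beta is secreted as a latent dimer that latent TGF-beta binding proteins tether to the matrix until it is released. Free ligand joins a type II and a type I receptor kinase. The type I kinase phosphorylates Smad2 and Smad3 for TGF-beta and activin, or Smad1, Smad5 and Smad9 for BMPs. These Smads bind the shared partner Smad4 and act on genes in the nucleus. Id genes and the inhibitory Smad6 and Smad7 are standard early targets of the pathway. In the prostate, TGF-beta is known to restrain epithelial growth and to shape the stroma.

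The libraries held 9237308 to 11821588 counts, of which the 47 genes took 0.205% to 0.278%. The first principal component of all tested genes (49.1% of the variance) set control-marrow sample 4 apart from the other 5. For some of the genes, values are given with and without that sample. Epithelial Krt8, Krt18 and Epcam stood at 965 to 1628 CPM (counts scaled to library size) in every sample, and the prostate regulator Hoxb13 at 35.1 to 211 CPM. F10 had 2 to 17 counts in the control-marrow samples and 4 to 9 in the LysM-Cre samples. Whole-tissue totals at that level do not check a deletion in myeloid cells. In whole tumours, fewer cells of a type and less RNA per cell cannot be told apart.

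None of the pathway genes passed the test between marrow groups. With edgeR's quasi-likelihood test, 0 of the 44 tested members had a Benjamini-Hochberg adjusted p under 0.05, where 7 of 15963 genes did (0.0439% of all genes). The other 3 members, Bmp5, Nog and Grem1, had too few counts to be tested. At an unadjusted p under 0.05 there were 8 members with higher values in the LysM-Cre group (Ltbp1, Ltbp2, Inhba, Bmp6, Acvr1b, Smad1, Smad2 and Smad3), or 18.2%, where 6.15% of all genes did, and 2 with lower values (Smad4 and Id2), or 4.55%, where 4.74% of all genes did. The 3 LysM-Cre samples all lay above the 3 control samples for 9 members and all below for 2, or 20.5% and 4.55%, where 8.99% and 7.67% of all genes did. The fitted log2 fold change, LysM-Cre over control, was above 0 for 27 of 44 members (61.4%, against 47.3% of all genes), with a median of 0.22 where all genes had -0.02. Leaving out control-marrow sample 4 brought the members' median to 0.02, and left 26 of 45 above 0. The values over all genes without that sample are not given here.

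DESeq2, run on the same counts, called 487 of 15332 genes (3.18% of all genes) and 4 members, all with higher values in the LysM-Cre group (2.32% of all genes were called higher and 0.861% lower): Ltbp2 (adjusted p = 3.06e-06), Inhba (0.00548), Ltbp1 (0.00564) and Acvr1b (0.047). The edgeR adjusted p of the same 4 were 0.0868, 0.144, 0.146 and 0.23. With the replicate number as a block, edgeR called 0 members, where 2 genes passed (0.0125% of all genes). At an unadjusted p under 0.05 the block gave 11 of the 44 members, or 25.0%, where 14.4% of all genes did. Those 11 took in Ltbp3, Acvr1 and Acvrl1, which were not among the 10 of the fit without the block, and left out Bmp6 and Smad4, which were. In the plot of fold changes, Ltbp2, Inhba, Ltbp1 and Acvr1b are the members whose intervals lie farthest from 0 for their width.

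**Figure D1:**
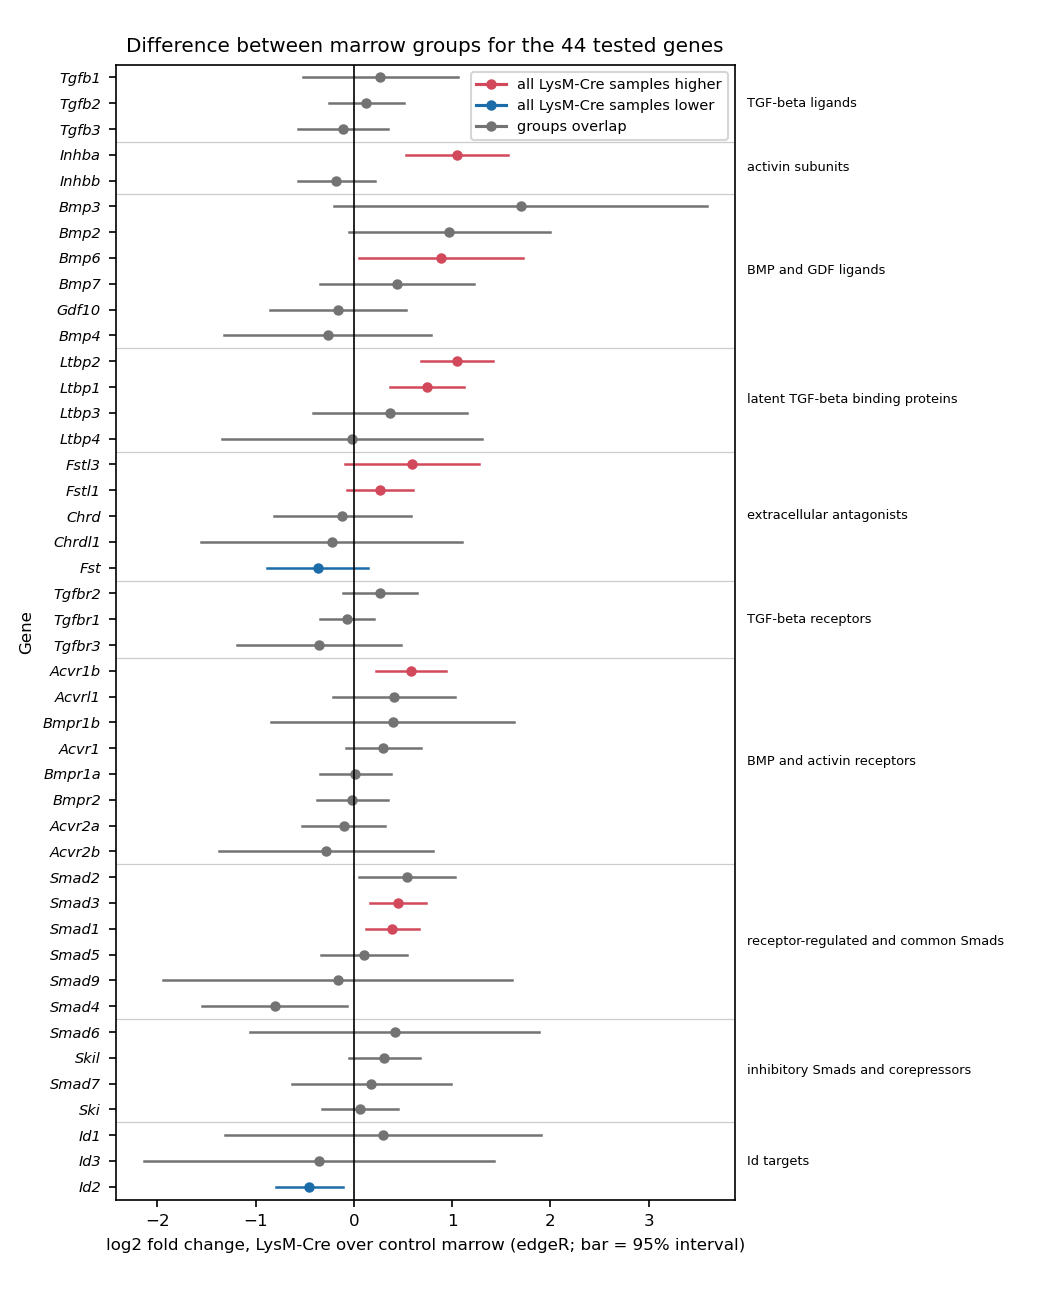
Fitted log2 fold change (LysM-Cre over control marrow, edgeR) of the 44 tested genes, by role, with 95% intervals; red and blue mark genes whose 3 samples in one group all lie above or below the 3 of the other. None of the 9 red genes and 2 blue genes is a TGF-beta ligand, a TGF-beta receptor, an inhibitory Smad or a corepressor. The intervals of Fst, Fstl1 and Fstl3 cross 0, as do most of those of genes neither red nor blue.

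The promoters of these 4 genes are printed because they are the members that any test run here called. Of the 47 members, 33 had an entry among RefSeq promoters (GRCm38.p6), and the bases shown are those before the start site and outside annotated exons of the gene itself, up to 250 bases, 5′ to 3′ on the gene's strand. Capitals mark CAGAC, the core Smad-binding motif, read on both strands, so that GTCTG is its other strand.
Ltbp2, chr12:84876533-84876741, minus strand: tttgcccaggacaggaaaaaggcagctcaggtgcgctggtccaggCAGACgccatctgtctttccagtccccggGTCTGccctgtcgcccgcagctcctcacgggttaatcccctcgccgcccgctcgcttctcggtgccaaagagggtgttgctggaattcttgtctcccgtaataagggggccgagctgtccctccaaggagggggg
Ltbp1, chr17:75005279-75005528, plus strand: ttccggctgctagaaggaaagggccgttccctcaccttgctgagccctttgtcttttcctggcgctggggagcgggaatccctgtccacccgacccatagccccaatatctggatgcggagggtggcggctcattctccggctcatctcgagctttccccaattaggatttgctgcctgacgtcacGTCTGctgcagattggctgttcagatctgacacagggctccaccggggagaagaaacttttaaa
Inhba, chr13:16011601-16011850, plus strand: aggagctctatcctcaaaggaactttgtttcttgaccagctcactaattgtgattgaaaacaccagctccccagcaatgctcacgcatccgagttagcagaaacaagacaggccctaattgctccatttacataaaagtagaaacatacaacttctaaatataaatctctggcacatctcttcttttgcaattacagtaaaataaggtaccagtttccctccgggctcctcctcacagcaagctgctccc
Acvr1b, chr15:101173822-101174066, plus strand: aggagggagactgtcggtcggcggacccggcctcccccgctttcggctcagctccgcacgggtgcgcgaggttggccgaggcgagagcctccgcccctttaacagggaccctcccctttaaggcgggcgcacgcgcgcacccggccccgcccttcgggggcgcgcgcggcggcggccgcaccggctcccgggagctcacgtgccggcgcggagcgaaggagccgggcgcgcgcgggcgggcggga
Ltbp2 held 2 such motifs and Ltbp1 held 1, and the letters are not in the windows of Inhba and Acvr1b. Ltbp1 had 2 promoter entries, and only the one with the first start is printed. The printed Ltbp2 bases overlap annotated exons of another gene, D030025P21Rik. CAGAC is a common word: 42.2% of all 32851 promoter windows of 250 bases held it, and 18 of the 41 member windows did (43.9%). GGCGCC, the GC-rich Smad motif, was in 9.59% of all windows and in 11 of the 41 member windows (26.8%), and in none of the 4 printed here. The palindrome GTCTAGAC, which shares letters with CAGAC but does not contain it, was in 0.167% of all windows and in 0 of the member windows. The 41 windows include several start sites of some genes. The share of G and C was not compared between members and all windows, and in the 4 printed windows it ran from 43.2% for Inhba to 78.8% for Acvr1b.

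Among the latent TGF-beta binding proteins, Ltbp2 and Ltbp1 separated the groups and the groups overlapped for Ltbp3 and Ltbp4. Ltbp2 (ENSMUSG00000002020, chromosome 12, 84783212 to 84876532, minus strand, GRCm38), a matrix protein of this family that itself does not bind latent TGF-beta, had 82.6, 79.3 and 91.9 CPM in control-marrow samples 1, 3 and 4 and 199, 182 and 143 CPM in the LysM-Cre samples. Every LysM-Cre sample was above every control sample, with group means of 84.6 ± 6.52 and 175 ± 29.1 CPM (SD, n = 3 each) and a log2 fold change of 1.05 ± 0.16 (SE; adjusted p by edgeR = 0.0868). Ltbp1 (ENSMUSG00000001870, chromosome 17, 75005568 to 75392512, plus strand), which tethers latent TGF-beta to fibrillin and fibronectin, had 74.7, 66.9 and 53.2 CPM against 98.2, 119 and 109 CPM. Its groups also did not overlap, at a log2 fold change of 0.74 ± 0.16 (adjusted p by edgeR = 0.146), or 0.62 without control-marrow sample 4.

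Ltbp3, another carrier of latent TGF-beta, had 166, 119 and 64.6 CPM in the control samples and 186, 147 and 119 CPM in the LysM-Cre samples. The groups overlapped, and its log2 fold change of 0.37 ± 0.33 (adjusted p by edgeR = 0.753) was 0.08 without control-marrow sample 4. Within each same-numbered pair the LysM-Cre sample was higher, and with the replicate block the log2 fold change was 0.44 (adjusted p by edgeR = 0.334). Ltbp4 was highest in the sample numbered 1 of both groups: it had 105 CPM in control sample 1 and 107 CPM in LysM-Cre sample 1, against 28.0 to 50.8 CPM in the other 4. Its log2 fold change was -0.02, with a 95% interval from -1.34 to 1.30 that leaves a difference of more than 2-fold possible in either direction.

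The TGF-beta ligands themselves showed no difference larger than the spread between samples. Tgfb1 had 17.1, 10.2 and 6.95 CPM in the control samples and 16.5, 13.6 and 11.3 CPM in the LysM-Cre samples, Tgfb2 had 30.4, 28.9 and 35.8 CPM against 30.9, 40.3 and 32.6 CPM, and Tgfb3 had 24.1, 26.9 and 35.1 CPM against 29.2, 28.7 and 22.0 CPM. All 3 overlapped between groups, with log2 fold changes of 0.27, 0.13 and -0.11 and edgeR adjusted p from 0.835 to 0.898. The 95% interval was from -0.52 to 1.06 for Tgfb1, and from -0.25 to 0.51 for Tgfb2. Without control-marrow sample 4 the log2 fold change of Tgfb1 was 0.013. Scaled by exon length, Tgfb3 was the highest of the 3 in the control group at 8.49 ± 1.7 CPM per kilobase, above Tgfb2 at 5.47 ± 0.626 and Tgfb1 at 2.26 ± 1.03 (SD, n = 3).

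The activin subunits went different ways. Inhba (ENSMUSG00000041324, chromosome 13, 16011851 to 16031621, plus strand), which encodes the beta A chain of activin A, had 10.1, 10.3 and 8.5 CPM in the control samples and 16.6, 17.8 and 25.4 CPM in the LysM-Cre samples. The lowest LysM-Cre sample stood above the highest control sample, and the log2 fold change was 1.05 ± 0.22 (SE; adjusted p by edgeR = 0.144). Inhbb, the beta B chain, had 44, 43.6 and 41.1 CPM against 46.3, 35.7 and 31.9 CPM, so its groups overlapped (log2 fold change -0.18 ± 0.17, edgeR adjusted p = 0.765). Inhbb was the more abundant subunit per length in both groups: it stood at 10.1 and 8.92 CPM per kilobase in the control and LysM-Cre groups, and Inhba at 1.5 and 3.12. The difference between the fold changes of the subunits was not tested.

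**Figure D2:**
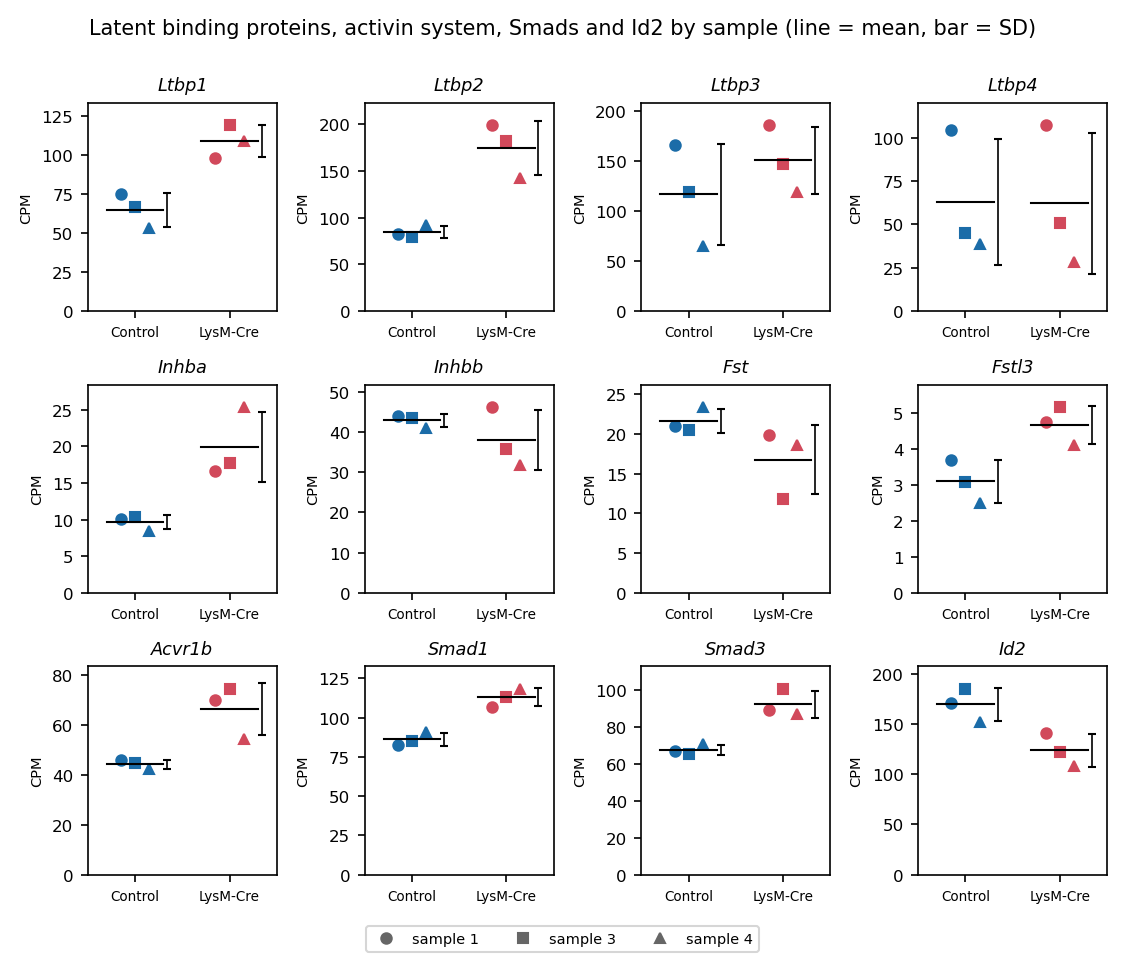
CPM in each sample for 12 genes, with control-marrow samples in blue and LysM-Cre samples in red, the group mean as a line and the SD as a bar. The groups are apart for Ltbp1, Ltbp2, Inhba, Fstl3, Acvr1b, Smad1 and Smad3 (LysM-Cre higher) and for Fst and Id2 (LysM-Cre lower), while sample 1 leads Ltbp4 in both groups.

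Several BMP ligands were led by a single sample, LysM-Cre sample 3. Bmp3, an inhibitory member of the family, had 4.52, 7.03 and 3.01 CPM in the control samples and 4.73, 36.4 and 6.23 CPM in the LysM-Cre samples, and Bmp5 had 80 counts in LysM-Cre sample 3 against 1 to 18 in the other 5. Bmp2 had 6.37, 6.60 and 4.67 CPM against 5.78, 19.5 and 9.30 CPM. The log2 fold changes of Bmp3 and Bmp2 were 1.7 ± 0.80 and 0.97 ± 0.44 (SE; adjusted p by edgeR = 0.513 and 0.485), and without LysM-Cre sample 3 they were 0.20 and 0.39. The summed level of 5 urothelial markers (uroplakins and Krt20) was 1523 CPM in LysM-Cre sample 3 and 150 to 424 CPM in the other 5, and the part of such cells in these ligands was not tested.

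Among the other BMP-type ligands, Bmp6 had 1.85, 1.29 and 1.45 CPM in the control samples and 2.10, 3.47 and 2.90 CPM in the LysM-Cre samples. The groups did not overlap (log2 fold change 0.89 ± 0.36, edgeR adjusted p = 0.428), but Bmp6 shares 224 exon bases on the opposite strand with Txndc5, which averaged 292 CPM, and the strand setting of the counting is not given in the sources used here. Gdf10, a BMP3-like ligand, was level with Bmp4 per length: averaged over all samples they stood at 6.91 and 6.88 CPM per kilobase of exon, in the control group at 7.30 and 7.5, and Bmp4 ranked above Gdf10 by longest transcript. Gdf10 had 52.7, 38.5 and 22.9 CPM against 39.6, 27.6 and 34.7 CPM. Bmp4, a ligand of stroma in many organs, had 26.6, 17.0 and 7.05 CPM against 18.3, 11 and 12.9 CPM, and Bmp7 ranged from 10.4 to 19.7 CPM against 13.0 to 25.9 CPM. All 3 overlapped, and the edgeR adjusted p ranged from 0.706 to 0.898.

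Of the extracellular antagonists, the follistatin family held the separated members, in both directions. Fst, which traps activin, had 21.0, 20.5 and 23.4 CPM in the control samples and 19.8, 11.8 and 18.7 CPM in the LysM-Cre samples. Every LysM-Cre sample was lower, by a narrow margin in sample 1, and the log2 fold change was -0.37 ± 0.22 (SE; adjusted p by edgeR = 0.61). Fstl3, a related activin-binding protein, had 3.69, 3.09 and 2.49 CPM against 4.73, 5.16 and 4.09 CPM, without overlap (log2 fold change 0.59 ± 0.29, edgeR adjusted p = 0.53).

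Fstl1 is a secreted glycoprotein of stroma and was the highest antagonist per length among the members. It had 120, 112 and 90.8 CPM in the control samples and 124, 123 and 140 CPM in the LysM-Cre samples. Its groups were separated by a small gap, at a log2 fold change of 0.26 ± 0.15 (adjusted p by edgeR = 0.577). The BMP traps chordin (Chrd, 4.35 to 7.84 CPM over all samples) and chordin-like 1 (Chrdl1, 5.70 to 27.2 CPM) overlapped. Nog, the gene of noggin, had 4 to 12 counts per sample, and Grem1, the gene of gremlin, had 1 count in each of 2 samples and 0 in the other 4, where a count of 0 allows up to 3 counts, or 0.254 to 0.311 CPM.

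Among the receptors, the separated gene was Acvr1b. Acvr1b (ENSMUSG00000000532, chromosome 15, 101174067 to 101213684, plus strand), the type I receptor for activin and nodal, had 45.8, 44.7 and 42.2 CPM in the control samples and 70.0, 74.6 and 54.5 CPM in the LysM-Cre samples. The groups did not overlap, with means of 44.2 ± 1.83 and 66.4 ± 10.5 CPM (SD, n = 3 each) and a log2 fold change of 0.59 ± 0.15 (SE; adjusted p by edgeR = 0.23). Of the 8 BMP and activin receptors, 5 had fold changes above 0 and 3 below, and the other 7 overlapped between groups.

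The main type I and type II receptors overlapped between groups. Bmpr1a, the highest receptor per length at 25.9 CPM per kilobase over all samples, had 135, 188 and 167 CPM in the control samples and 149, 172 and 174 CPM in the LysM-Cre samples, a log2 fold change of 0.01 with a 95% interval from -0.35 to 0.38. Bmpr2, its type II partner, gave -0.02 (interval -0.38 to 0.34) and Tgfbr1, the type I receptor of TGF-beta, gave -0.07 (interval -0.35 to 0.21). Tgfbr2, the type II receptor of TGF-beta, had 136, 182 and 187 CPM against 199, 224 and 183 CPM, which overlapped (0.26 ± 0.16, edgeR adjusted p = 0.618).

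The remaining receptors also overlapped. The co-receptor betaglycan (Tgfbr3) had 71.3, 63.9 and 28.0 CPM against 53.0, 31.2 and 43.8 CPM, with its lowest value in control-marrow sample 4. Acvr1, a type I receptor for BMPs, had 22.6, 27.8 and 28.8 CPM in the control samples and 28.0, 33.8 and 35.6 CPM in the LysM-Cre samples (0.30 ± 0.17, edgeR adjusted p = 0.574). Acvrl1, the BMP9 receptor of endothelium, ranged from 12.4 to 23.0 CPM against 18.2 to 27.9 CPM, Acvr2a from 31.4 to 47.1 against 33.7 to 40.8 CPM, and Bmpr1b and Acvr2b stayed at or below 6.57 CPM in every sample.

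Smad3 and Smad1 were higher in every LysM-Cre sample, Smad2 had a higher mean there, and Smad4, Smad5 and Smad9 overlapped. Smad3, a transducer of TGF-beta and activin, had 67.3, 65.5 and 70.8 CPM in the control samples and 89.3, 101 and 87.2 CPM in the LysM-Cre samples, and Smad1, a transducer of BMPs, had 82.8, 84.9 and 90.8 CPM against 107, 113 and 118 CPM. Neither overlapped between groups, at log2 fold changes of 0.45 ± 0.12 and 0.39 ± 0.12 (SE), and neither passed edgeR (adjusted p = 0.242 and 0.283) or DESeq2 (adjusted p = 0.0551 and 0.0784). Smad2, which works beside Smad3, had 43.7, 62.8 and 41.2 CPM against 60.8, 86.7 and 67.2 CPM, with overlap between control sample 3 and LysM-Cre sample 1 (0.54 ± 0.21, edgeR adjusted p = 0.411).

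Smad4, the partner shared by both branches and the member with the highest mean level per length, was uneven among the control samples. It had 163, 293 and 422 CPM in control-marrow samples 1, 3 and 4, against 187, 150 and 165 CPM in the LysM-Cre samples. The LysM-Cre values lay close together around the lowest control value, and the log2 fold change of -0.81 ± 0.32 (SE; adjusted p by edgeR = 0.414) was -0.45 without control-marrow sample 4 and -1.06 without control-marrow sample 1. Smad5 ranged from 71.4 to 115 CPM in the control samples and from 101 to 111 CPM in the LysM-Cre samples. Smad9, the least abundant of the BMP Smads, had 5.63, 4.63 and 0.311 CPM against 2.84, 3.21 and 3.41 CPM, so control-marrow sample 4 held both the highest Smad4 and the lowest Smad9 level.

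The inhibitory Smads and corepressors overlapped between groups in all 4 cases. Skil, which encodes the repressor SnoN, had 45.4, 53.7 and 40.6 CPM in the control samples and 51.0, 62.3 and 59.9 CPM in the LysM-Cre samples (log2 fold change 0.31 ± 0.16, edgeR adjusted p = 0.535). Ski, its relative and the highest of the 4 per length, had 97.5, 74.1 and 72 CPM against 95.1, 85.2 and 74.1 CPM. Smad6 had 5.17, 4.63 and 0.829 CPM against 6.93, 4.57 and 2.81 CPM, and Smad7 had 26.1, 19.4 and 9.33 CPM against 23.8, 20.9 and 17.4 CPM, with control-marrow sample 4 lowest for both.

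The 3 Id genes encode inhibitors of helix-loop-helix factors, and the groups were apart for Id2 only. The fold changes of the 3 genes were not compared by a test, and the 95% intervals of Id1 and Id3 include the value of Id2. Id2 had 171, 185 and 152 CPM in the control samples and 141, 122 and 108 CPM in the LysM-Cre samples. All LysM-Cre values were below all control values, at a log2 fold change of -0.45 ± 0.15 (SE; adjusted p by edgeR = 0.318), and it was -0.53 without control-marrow sample 4. Id1 had 55.7, 33.9 and 5.70 CPM against 35.5, 48.9 and 33.1 CPM, and Id3 had 92.7, 51.2 and 9.64 CPM against 63.5, 30.2 and 26.6 CPM. Both had their lowest value in control-marrow sample 4, and the fitted values were 0.30 ± 0.67 for Id1 and -0.36 ± 0.74 for Id3 (adjusted p by edgeR = 0.922 and 0.913). They were -0.20 and -0.85 without that sample, and 1.00 and 0.41 without control-marrow sample 1.

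The low values of control-marrow sample 4 ran through much of the list. It was the lowest of the 6 samples for 25 of 44 tested members (56.8%), where it was the lowest for 27.8% of all tested genes. The members concerned included Id1, Id3, Smad6, Smad7, Smad9, Bmp4 and Chrdl1, drawn in the plot of log2 ratios. Id2 was not among them: its value there was above all LysM-Cre samples. In the same sample the summed level of 8 smooth muscle markers was 944 CPM, where the other samples had 1342 to 3429 CPM, and that of 10 endothelial markers was 41.7 CPM, where the others had 57.0 to 108 CPM. The basal, skeletal muscle and urothelial sums were also lowest there, at 799, 17.1 and 150 CPM. The luminal sum was highest there, at 5230 CPM against 4189 to 4670 CPM in the others, and so was the neutrophil sum, at 245 CPM against 103 to 185 CPM. Mitochondrial transcripts took 5.75% of its counts and 2.45% to 4.58% in the others. The part of these differences in the low values was not tested.

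**Figure D3:**
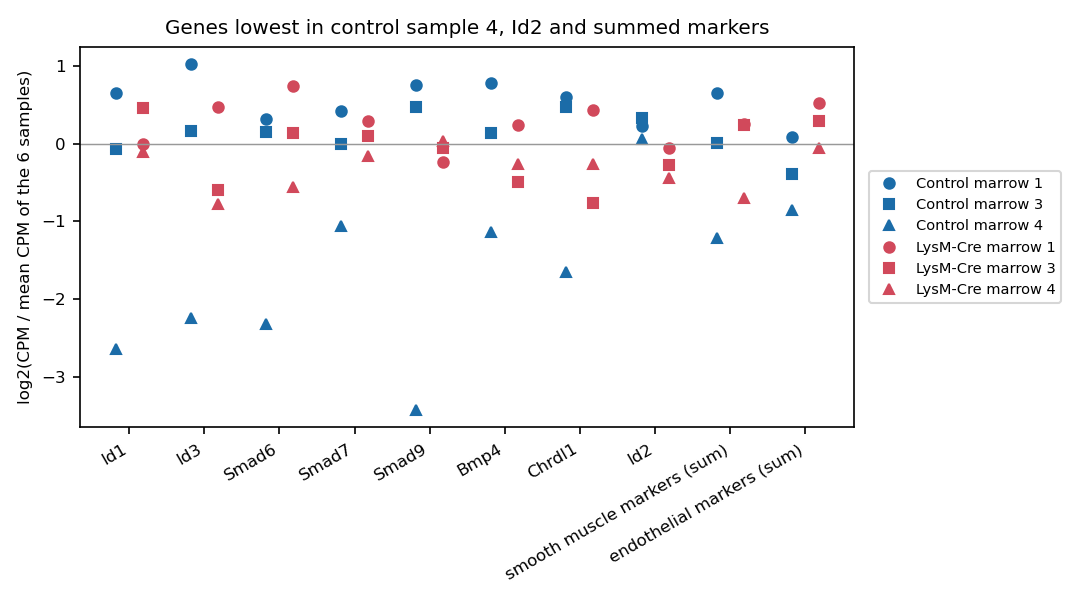
log2 ratio of each sample's CPM to the mean of the 6 samples for 7 genes drawn because control-marrow sample 4 (blue triangle) is the lowest point there, for Id2, and for the summed smooth muscle and endothelial markers. In Id2 that sample, at 152 CPM, lies above the LysM-Cre samples, at 108 to 141 CPM.

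Genes of the pathway outside the 47 were described from a separate list of 74, of which 65 were in the table and 56 were tested. With edgeR 0 of 56 passed. DESeq2 called some of them, Ccn2, Tgfbi and Col1a1 included, where it called 3.18% of all genes. In the edgeR fit 40 of 56 had fold changes above 0, where 47.3% of all genes did. Their median was 0.24 where all genes had -0.02. At an unadjusted p under 0.05 there were 11 of the 56 with higher values (6.15% of all genes) and 0 with lower values (4.74% of all genes). The genes listed as induced by TGF-beta held 7 of those 11: all 10 had fold changes above 0, with a median of 0.58, and 7 of the 10 were higher in every LysM-Cre sample, as were 8.99% of all genes. That list was drawn up with some of these results known, and its counts are a description. The 7 without overlap became 7 or 8 with any 1 sample left out, and 9 or 10 stayed above 0. The shares over all genes in those settings are not given here. The 6 tested genes listed as induced by BMP had 4 above 0, with a median of 0.21, and 0 without overlap in either direction, where 16.7% of all genes had none. The difference between these lists was not tested.

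The leading genes of the list of genes induced by TGF-beta encode secreted and matrix proteins. Their induction by TGF-beta was not measured here. Ccn2, the matricellular connective tissue growth factor, had 29.3, 33.7 and 15.9 CPM in the control samples and 66.7, 55.0 and 72.3 CPM in the LysM-Cre samples (log2 fold change 1.30 ± 0.27, SE; edgeR adjusted p = 0.144). Tgfbi, a matrix protein named for its induction by TGF-beta, had 40.6, 37.3 and 36.0 CPM against 53.7, 67.6 and 67.7 CPM (0.73 ± 0.15, edgeR adjusted p = 0.121). DESeq2 gave an adjusted p of 0.00104 for Ccn2 and 0.00274 for Tgfbi. Neither overlapped between groups.

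Col1a1, a collagen I chain, and Fn1, fibronectin, were at 1.21 ± 0.19 and 1.03 ± 0.12 (SE; adjusted p by edgeR = 0.0868 and 0.0758), and Klf10, an early response gene, was at 0.41 ± 0.14 (adjusted p by edgeR = 0.344). By DESeq2 the adjusted p was 8.38e-06 for Col1a1 and 0.194 for Klf10. Of the genes that release or hold latent TGF-beta, Fbn1, the fibrillin to which these complexes attach, had 12.2, 10.7 and 8.71 CPM in the control samples and 20.3, 18.1 and 15.1 CPM in the LysM-Cre samples, and Thbs1, thrombospondin 1, had 193, 209 and 149 CPM against 235, 288 and 294 CPM. Neither overlapped, at log2 fold changes of 0.76 ± 0.21 and 0.57 ± 0.17 (adjusted p by edgeR = 0.253 and 0.283). DESeq2 called neither Fbn1 nor Thbs1 (adjusted p = 0.0709 and 0.069). Snai1, Snai2 and Timp1 overlapped between groups.

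**Figure D4:**
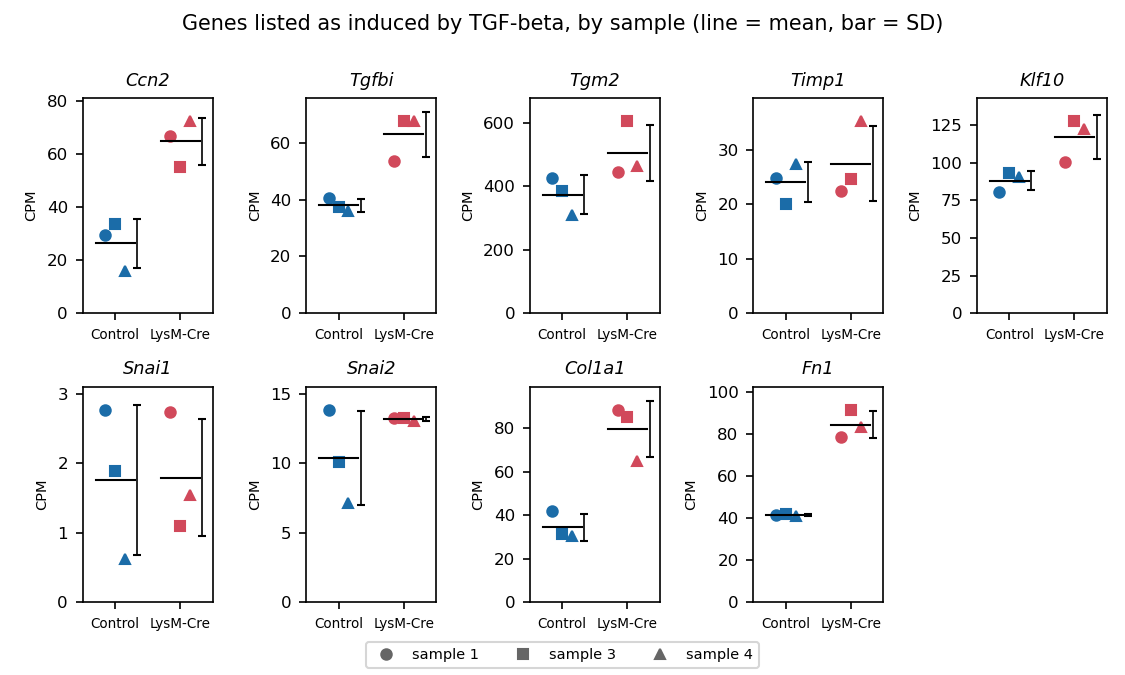
CPM in each sample for 9 of the 10 genes listed as induced by TGF-beta, control-marrow samples in blue and LysM-Cre samples in red, with the group mean as a line and the SD as a bar. Ccn2, Tgfbi, Tgm2, Klf10, Col1a1 and Fn1 are higher in every LysM-Cre sample; Snai1, Snai2 and Timp1 overlap.

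Some markers of other cell types moved with the same split of samples. The summed level of 10 fibroblast markers was 436 to 502 CPM in the control samples and 558 to 660 CPM in the LysM-Cre samples, without overlap. The collagen genes Col1a2 and Col3a1 and the matrix gene Postn, at log2 fold changes of 0.89, 0.88 and 0.90, were the 3 of 10 without overlap. Lum (0.04), Pdgfra (0.01), Fbln1 (-0.12) and Col6a3 (-0.27) overlapped, and the list's median was 0.16. Of the 10 endothelial markers, 9 had fold changes above 0, with a median of 0.72, and Cdh5, Tek, Emcn and Plvap did not overlap. The endothelial sums of 79.5, 57.0 and 41.7 CPM in the control samples and 108, 91.5 and 71.9 CPM in the LysM-Cre samples overlapped, and the LysM-Cre sample was higher in each same-numbered pair, as it was for the endothelial receptor Acvrl1.

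The 12 skeletal muscle markers summed to 17.1 to 186 CPM in the control samples and 990 to 2428 CPM in the LysM-Cre samples, and the 5 basal epithelial markers to 799 to 1943 CPM against 2182 to 3640 CPM, both without overlap. The 8 adipocyte markers summed to 62.5 to 113 CPM against 126 to 211 CPM, but only Pparg and Pck1 did not overlap. In LysM-Cre sample 3 that sum came mostly from Pparg (61.1 CPM) and Lipe (53.3 CPM), while Adipoq, at 1.18 CPM, lay within the control range of 0.207 to 3.60 CPM, as did Plin1, Cidec and Cfd within theirs. The fibroblast, endothelial, skeletal muscle and basal markers all had counts in every sample, and the adipocyte marker Lep was at 0 in some. The smooth muscle, macrophage, neutrophil, luminal, urothelial and seminal vesicle sums overlapped. The part of these cells in the values of Ltbp1, Ltbp2, Inhba, Acvr1b, Acvrl1, Smad1, Smad3 and the listed induced genes was not tested.

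Per kilobase of exon and averaged over the 6 samples, the levels of the members spanned from 0.00793 for Grem1 to 62.0 for Smad4. Id2 followed at 60.2, and their samples overlapped (40.5 to 114 for Smad4, 44.4 to 76.0 for Id2), so the order of these neighbours is not fixed. Next came Id1 at 30.6, Bmpr1a at 25.9, Id3 at 25.5, Fstl1 at 24.1 and Tgfbr2 at 22.6 CPM per kilobase, with ranges that all overlapped. Tgfb3, the highest TGF-beta ligand, averaged 8.18 CPM per kilobase against 22.6 for Tgfbr2 and 12.4 for Tgfbr1, and the sample ranges of 6.5 to 10.4 for Tgfb3 and 11.5 to 13.6 for Tgfbr1 did not overlap.

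**Figure D5:**
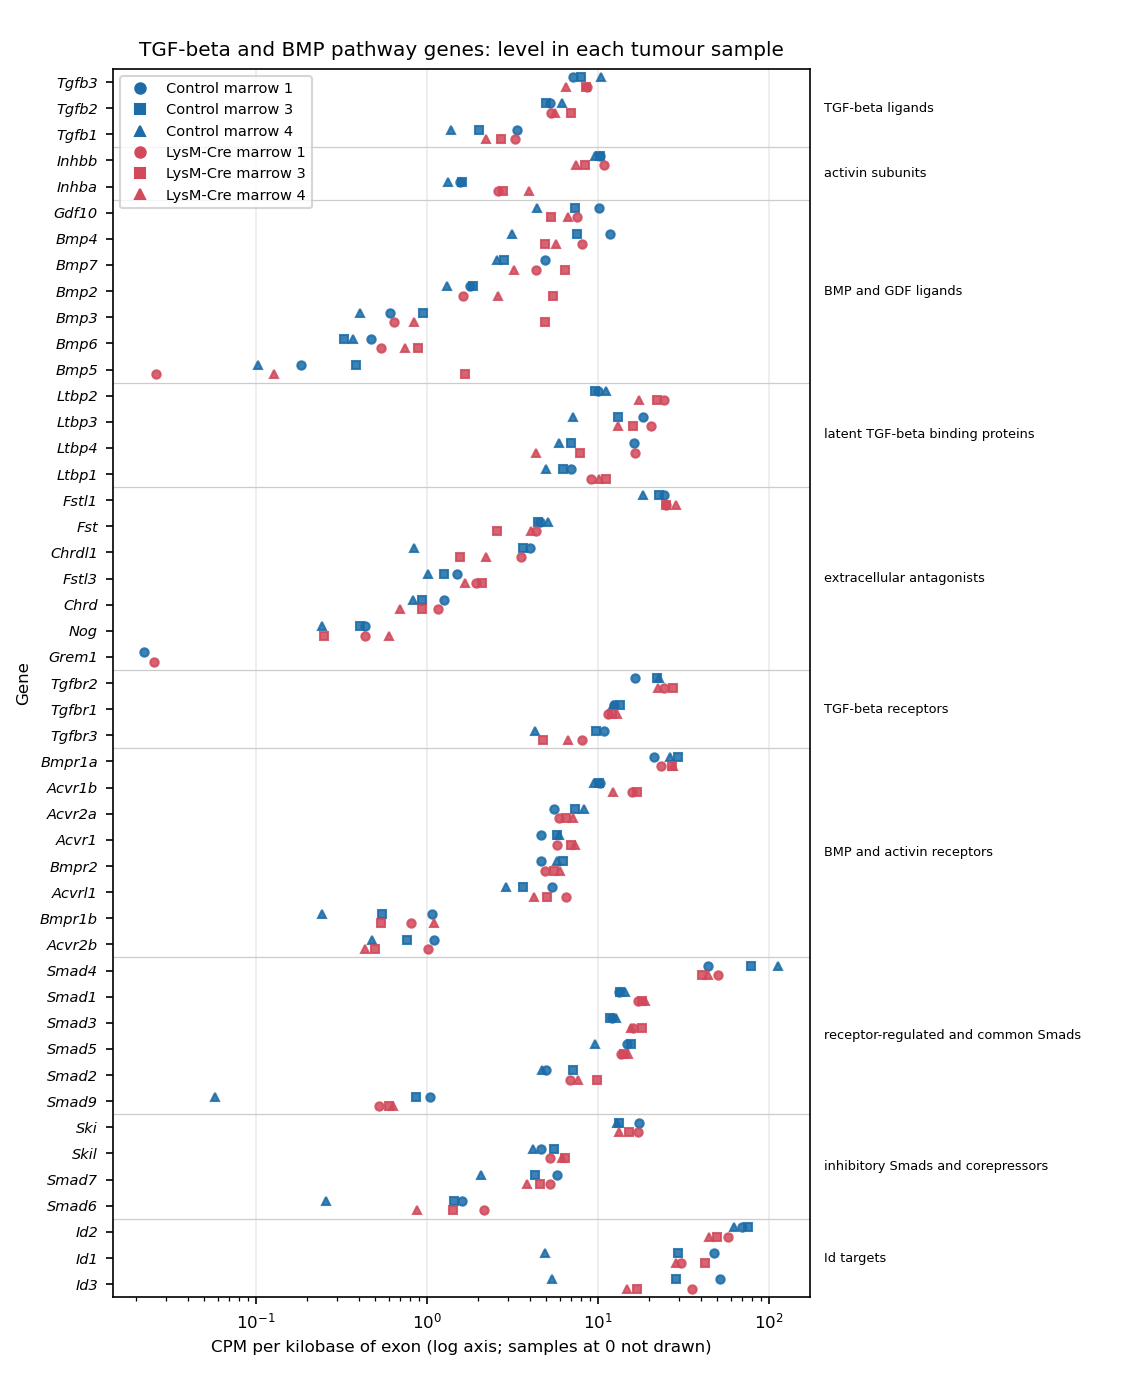
CPM per kilobase of exon (log axis) of the 47 genes in each sample, by role, samples at 0 left out, with control-marrow samples in blue and LysM-Cre samples in red. Smad4 and Id2 lead, Grem1, Bmp5 and Nog are lowest, and LysM-Cre sample 3 (red square) stands alone for Bmp3 and Bmp5.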

How the data were processed

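Raw counts by Ensembl gene, in 1 table for all 6 samples, were deposited by the authors; per the labels' protocols, libraries were poly-A selected, strand-specific and read from a single end over 120 bases. STAR 2.7.10a and GRCm38 are named in the submitters' processing notes, with DESeq2 named without a role; for the counting program and its strand setting the sources used here give nothing. GENCODE M21 gave symbols for 21605 identifiers and none for 113. Groups came from the sample titles. Members and lists were chosen with earlier results of these data known.

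Genes were kept by filterByExpr (minimum count 10; 15963 genes) and tested with edgeR 4.0.16 (R 4.3.3; TMM, robust quasi-likelihood test), with Benjamini-Hochberg adjustment over all genes and a threshold of 0.05. CPM use the TMM factors, and CPM per kilobase divide by the union of exons. Values in every sample are given for the 2 members of each role with the smallest p, those whose groups do not overlap and the highest per length; of the other pathway genes, the text names those among the 8 with the smallest p that are reported here. Smad2, Id1 and other members named beyond this were chosen after their values were seen. Some items of the model and lists are not reported here. The tests were run on simulated counts first.

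Alternatives tried were scaling by RLE or upper quartile factors, TMM without the 50 most abundant genes, limma-voom (limma 3.58.1), DESeq2 1.42.0, the replicate number as a block, an adjusted p threshold of 0.1, a fit that is not robust, no filter, a filter of 1 CPM in 3 or more samples, and leaving out each sample. Deviations from the group means correlated across genes between same-numbered samples at 0.35, 0.135 and 0.181 for numbers 1, 3 and 4, each over 0.1. Between samples of different numbers the correlations ran from -0.247 to 0.0682. Deviations within a group cancel out, which pushes the different-number values down, so the correlations do not settle whether samples are paired. The labels name no shared animal or day. The main fit was left unpaired, and the replicate block is given as an alternative. No 2 samples of a group were alike within sampling noise (chi-square per degree of freedom from 24.4 to 85.4). Whether each sample came from its own animal is not stated in the labels; the p-values therefore reflect only the spread among these 6 samples, which may be technical. Limits from counts cover counting error only.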

Additional observations from a re-analysis of the deposited data

How the results depend on the processing

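The count of members past the threshold was 0 under 14 of the 16 alternatives. It was 4 with DESeq2 (all higher) and 1 (Ltbp2) at an adjusted p under 0.1. The count over all genes, 7 in the edgeR test, was 487 with DESeq2, 85 at an adjusted p under 0.1, 3 in the non-robust fit, and 2 with limma-voom, with TMM without the 50 most abundant genes and with the filter of at least 1 CPM. With the replicate block it was also 2, and the block changed no call of a member. With 1 sample left out it ran from 0 to 72: it was 0 without control-marrow sample 3 or LysM-Cre sample 4, 1 without LysM-Cre sample 1, 5 without control-marrow sample 4, 18 without LysM-Cre sample 3 and 72 without control-marrow sample 1. The members' median log2 fold change ran from 0.023 (without control-marrow sample 4) to 0.38 (without control-marrow sample 1), and the number of members whose groups do not overlap ran from 11 to 17 (the latter without control-marrow sample 4), where fewer samples make overlap less likely. Counts of members above 0 with a sample left out, an alternative chosen after seeing the data, ran from 26 to 35, and members at an unadjusted p under 0.05 ran from 6 to 12 higher and from 0 to 2 lower. The shares and medians over all genes with a sample left out are not given here. These ranges therefore cannot tell a shift of the members from a shift of all genes.

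Of 44 tested members, 26 kept the sign of their fold change under every alternative run, Ltbp1, Ltbp2, Inhba, Acvr1b, Smad1, Smad3 and Id2 among them. A further 18 changed sign under at least 1, of which 16 did so only with a sample left out; the causes were not tested. Bmpr2 was at 0.0067 with upper quartile scaling, and Smad9 at 0.51 with limma-voom and 0.19 with the replicate block. With 1 sample left out the log2 fold changes were, for Tgfb3 from -0.19 to 0.0584, Bmp4 from -0.64 to 0.24, Gdf10 from -0.43 to 0.17, Ltbp4 from -0.64 to 0.59, Chrd from -0.27 to 0.10, Chrdl1 from -0.66 to 0.13, Tgfbr1 from -0.12 to 0.00124, Bmpr1a from -0.0757 to 0.12, Bmpr2 from -0.11 to 0.0868, Acvr2a from -0.22 to 0.0229, Acvr2b from -0.72 to 0.0743, Smad5 from -0.0883 to 0.22, Smad9 from -0.70 to 0.35, Smad6 from -0.0478 to 0.80, Smad7 from -0.14 to 0.55, Ski from -0.0193 to 0.24, Id1 from -0.20 to 1.00, Id3 from -0.85 to 0.41. Other scalings moved the median of all genes by at most 0.02. Using the longest transcript in place of the union of exons kept 9 of the 10 highest members per kilobase. Members with few counts (Bmp5, Nog, Grem1, Smad6, Smad9, Bmp6) are limited by depth.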

Other observations

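Control-marrow sample 4, which held the highest Smad4 level at 422 CPM, also held the highest Hoxb13 level at 211 CPM, where control-marrow samples 1 and 3 had 76.0 and 101 CPM and the LysM-Cre samples 35.1 to 60.8 CPM. Hoxb13 is a homeobox regulator of prostate identity. Its edgeR log2 fold change was -1.46, with an adjusted p of 0.253 and no overlap between groups, and it was named here after its values were seen.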
